A study of Canis lupus familiaris with 32 samples.

Results

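Glycolysis and citrate cycle enzymes were followed in 32 primary canine osteosarcomas. The genes were chosen by name from the annotation of the array: every symbol for a hexokinase, glucose-6-phosphate isomerase, phosphofructokinase or PFK-2, aldolase, triosephosphate isomerase, GAPDH, PGK1, PGAM1, ENO1 or ENO2, pyruvate kinase, lactate dehydrogenase A or B, pyruvate dehydrogenase subunit, pyruvate dehydrogenase kinase, citrate synthase, isocitrate dehydrogenase, oxoglutarate dehydrogenase, succinyl-CoA ligase, fumarase or malate dehydrogenase. This rule found 26 of the 5246 genes with a symbol, measured by 52 of 22176 probes, and used no expression value. Of these genes 11 had 1 probe and 15 had several, which were averaged on each array. No member had a missing value. HK1, ENO2, PKM, LDHB, PDHX, CS, OGDH, SUCLA2, SUCLG2 and MDH2 were named by the rule but had no probe under these symbols and were not analysed here.

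Transcript levels came from 2-color cDNA arrays, 1 per tumor, of 16 short survivors (SS), dogs that lived less than 6 months, and 16 long survivors (LS), which lived longer. All tumors were removed by surgery before any other therapy, came from dogs of various breeds and ages and of both sexes, and lay at different sites of the skeleton, with 1 outside it. Some dogs of both groups received chemotherapy afterwards. Every array carried 1 tumor and a common pool of all 32 tumors labeled with the other dye, so positive log2 ratios stand for transcripts above their level in that pool. In each survival group 8 tumors carried Cy5 and 8 carried Cy3. Each tumor is a separate dog.

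Glycolysis splits glucose into pyruvate in the cytosol. Its hexose phase spends ATP to make fructose bisphosphate, which aldolase cleaves, and its triose phase, from GAPDH to pyruvate kinase, gains ATP. Lactate dehydrogenase turns pyruvate into lactate, whereas the pyruvate dehydrogenase complex passes it to the citrate cycle in mitochondria, a step that pyruvate dehydrogenase kinases switch off. Many tumors use much glucose and release lactate even where oxygen is present, and genes of glycolysis are classical targets of the hypoxia-inducible factors.

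Values differed between the dye orientations. The authors switched the values of the dye-swapped arrays, so all ratios are taken as tumor over pool. Means per probe over the Cy5 arrays and over the Cy3 arrays had a Pearson's r of -0.658, across probes that are no independent replicates. By limma, a linear model with moderated variances, 59.1% of all 5246 genes differed between the orientations at an adjusted p under 0.10, and so did 12 of the 26 members. Of these 12, 10 were higher with the tumor in Cy5 (33.2% of all genes) and ALDOC and LDHA were lower (25.8%). LDHA had the largest gap of the 26 members, -0.52 on the log2 scale for Cy5 minus Cy3 (adjusted p = 0.0778), and IDH1 the largest of those higher in Cy5, 0.46 (adjusted p = 0.000184). The dye profile was taken as the gap between the orientations at each probe, and its strength on an array as the slope of the values of that array on it. This strength lay between 0.518 and 0.957 on SS arrays and between 1.02 and 1.33 on LS arrays with the tumor in Cy5, and between 0.274 and 1.11 on SS arrays and between 0.882 and 1.47 on LS arrays with the tumor in Cy3. The profile was thus on average weaker in SS. SS and LS were also compared within each orientation, which does not take out this gap in strength. There the gap enters SS minus LS with opposite sign on the Cy5 and the Cy3 arrays. Over all arrays, with equal numbers of both groups in each orientation, these parts offset each other in part. Array medians ran from -0.028 to 0.024, and the SD over all probes of an array from 0.474 to 0.762, the highest being that of SS tumor 1.

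SS and LS were compared by limma over all genes, with Benjamini-Hochberg adjustment and a threshold of 0.10, the false discovery rate of the study. Over the 32 tumors no member was called, and no gene of the array was (0%), the smallest adjusted p being 0.13. At an unadjusted p under 0.05 stood 443 genes (8.44%), 300 of them higher in SS (5.72%). Among the members 4 were under this limit, PFKFB3, ALDOA, PGK1 and PGAM1, and all 4 were higher in SS. The difference was above 0 for 19 of the 26 members (73.1%), against 56.6% of all genes. The median difference of the members was 0.15, against 0.022 over all genes, with 0.054 on the Cy5 and 0.21 on the Cy3 arrays. Differences ran from -0.15 (PFKL) to 0.48 (LDHA). With the orientation as a block, 30 genes were called (0.572%) and again no member, of which PFKFB3 came nearest (adjusted p = 0.132). Significance Analysis of Microarrays, the permutation method of the study, run on single probes, called probes of 46 genes (0.877%) at a false discovery rate of 10%, and PFKFB3, higher in SS, was the 1 member among them. In bulk tumor RNA, fewer cells of a type and less RNA per cell cannot be told apart.

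**Figure D1:**
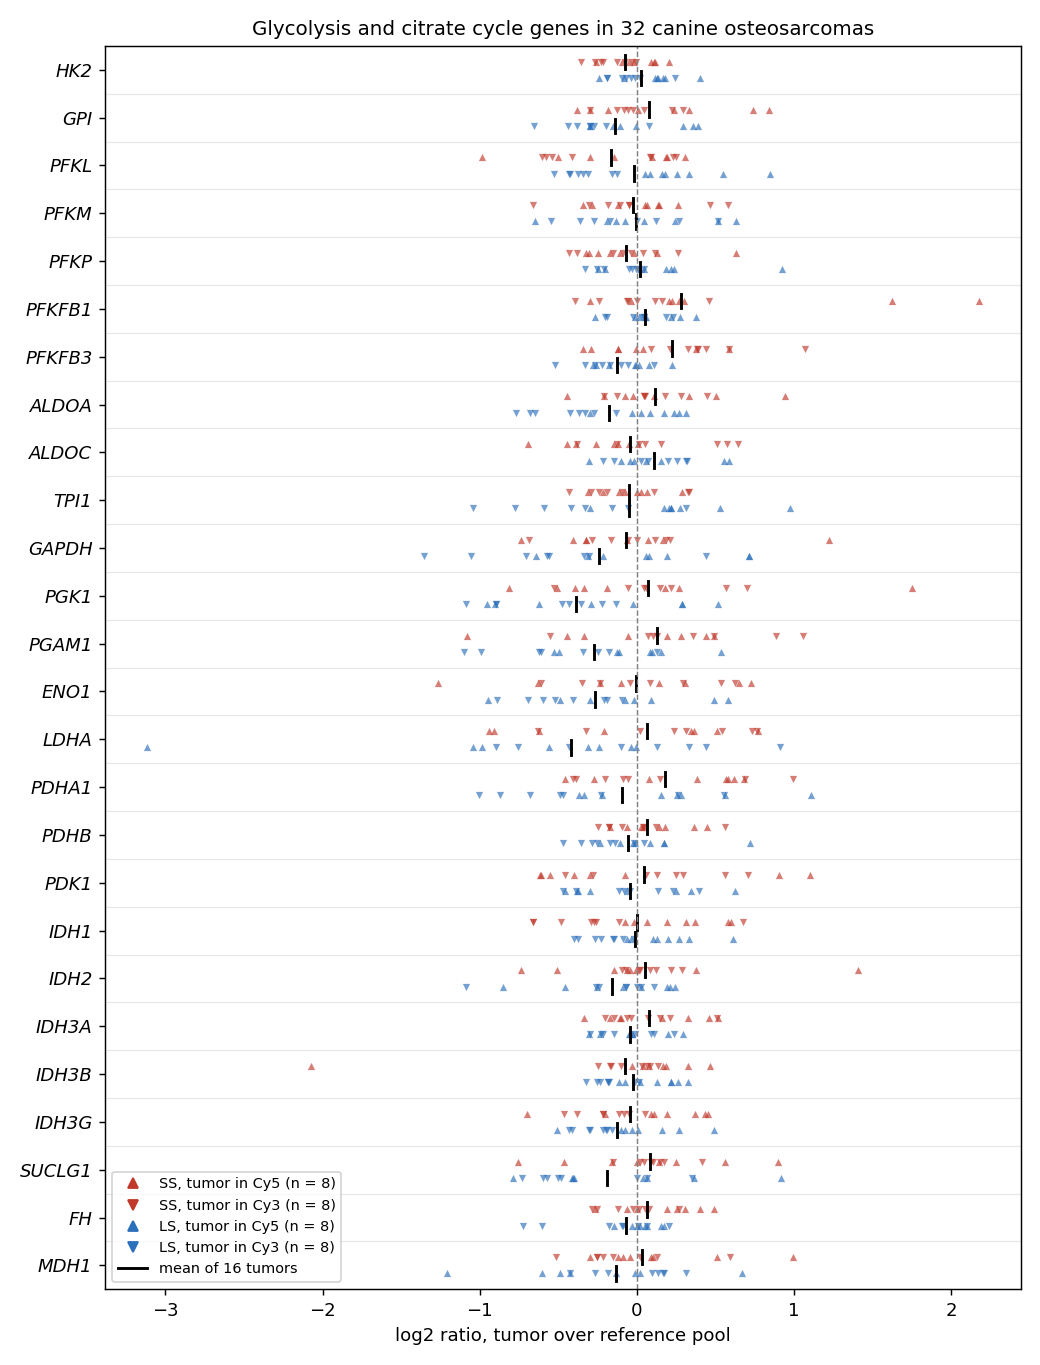
Log2 ratio of tumor over reference pool (horizontal axis) for the 26 genes, in pathway order from top to bottom, 1 point per tumor. Upper points in each line are the 16 SS tumors and lower points the 16 LS tumors, triangles pointing up are Cy5-labeled tumors and triangles pointing down Cy3-labeled ones, and black strokes are group means. The groups overlap for every gene, and LDHA in tumor 29 (-3.12), PFKFB1 in tumors 8 (2.18) and 3 (1.63) and IDH3B in tumor 3 (-2.08) lie far from the other tumors.

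The parts of the pathway differed in where their differences lay. The 8 genes from hexokinase to triosephosphate isomerase, without the PFK-2 genes, had a median difference of -0.055, and 2 of the 8 were above 0. This median changed sign with the orientation, being -0.14 on the Cy5 arrays (2 of 8 above 0) and 0.11 on the Cy3 arrays (7 of 8). The 5 genes of the triose phase and lactate formation had a median of 0.40, with 5 of 5 above 0, but 0.034 on the Cy5 arrays (3 of 5 above 0) and 0.49 on the Cy3 arrays (5 of 5). The 3 genes of the pyruvate dehydrogenase step had a median of 0.12 and the 8 genes of the citrate cycle 0.13, with 3 of 3 and 7 of 8 above 0. The cytosolic enzymes IDH1 and MDH1 are counted among these 8. On the Cy5 and on the Cy3 arrays the citrate cycle median was 0.12, and that of the pyruvate dehydrogenase step was 0.024 on the Cy5 and 0.21 on the Cy3 arrays. No test between these parts was made.

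Of the hexose phase, HK2, the inducible hexokinase that traps glucose in the cell, varied least. Its log2 ratios ran from -0.36 (tumor 11) through a median of -0.061 to 0.20 (tumor 4) in SS, and from -0.24 (tumor 29) through a median of 0.0028 to 0.40 (tumor 20) in LS. The groups lay over each other, with means of -0.076 in SS and 0.029 in LS and a difference of -0.10 (SE 0.064, p = 0.112), and the SD after centering within orientation stood at percentile 9.19 of all genes. GPI, which turns glucose 6-phosphate into fructose 6-phosphate, averaged 0.079 ± 0.35 in SS and -0.14 ± 0.30 in LS (SD, n = 16 each), so that SS minus LS was 0.22 (SE 0.11, p = 0.0601, adjusted p = 0.613), or 0.14 on the Cy5 and 0.30 on the Cy3 arrays. Its 4 probes gave differences between -0.079 and 0.40, so this mean rests on probes that do not share a sign.

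The 3 phosphofructokinases, which commit sugar to glycolysis, were not called in either direction. PFKL, the liver type, averaged -0.17 ± 0.40 in SS and -0.016 ± 0.39 in LS, with a difference of -0.15 (SE 0.14, p = 0.282). It was -0.45 on the Cy5 and 0.15 on the Cy3 arrays, and -0.092 over all arrays without LS tumor 30. PFKP, the platelet type, differed by -0.090 (means -0.069 in SS and 0.021 in LS, SE 0.10, p = 0.375) and PFKM, the muscle type, by -0.021 (means -0.025 in SS and -0.0043 in LS, SE 0.12, p = 0.862). Without LS tumor 20 the PFKP difference was -0.030. The 2 probes of PFKP gave -0.27 and 0.093. Of the aldolases, ALDOC, the brain type, averaged -0.042 ± 0.37 in SS and 0.11 ± 0.26 in LS (difference -0.15, SE 0.11, p = 0.197), and SS minus LS was -0.37 on the Cy5 and 0.077 on the Cy3 arrays. TPI1, which interconverts the triose phosphates, differed by -0.0029 over all tumors (SE 0.14, p = 0.983), but this figure joined -0.33 on the Cy5 arrays and 0.32 on the Cy3 arrays.

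ALDOA, the muscle and ubiquitous aldolase, had log2 ratios from -0.45 (tumor 7) through a median of 0.047 to 0.94 (tumor 1) in SS, and from -0.77 (tumor 22) through a median of -0.20 to 0.31 (tumor 31) in LS. SS lay higher with overlap: 13 of 16 SS tumors were above the LS mean. The means were 0.11 in SS and -0.18 in LS, and the difference of 0.29 (SE 0.12, 95% interval 0.051 to 0.54) corresponds to 1.23-fold (p = 0.0191, adjusted p = 0.48).

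PFK-2 enzymes make and break fructose 2,6-bisphosphate, the strongest activator of phosphofructokinase. PFKFB3, the inducible form with high kinase activity, had the smallest p of all members. Its log2 ratios ran from -0.34 (tumor 5) through a median of 0.27 to 1.07 (tumor 9) in SS, and from -0.52 (tumor 22) through a median of -0.14 to 0.22 (tumor 31) in LS. A level above the pool was found in 11 of 16 SS and 4 of 16 LS tumors, and the groups overlapped between the lowest SS and the highest LS value. The mean was 0.22 in SS and -0.12 in LS, which gives a difference of 0.35 (SE 0.10, 95% interval 0.14 to 0.56, 1.27-fold, p = 0.00197, adjusted p = 0.344). PFKFB1, the liver and muscle form, averaged 0.28 ± 0.68 in SS and 0.052 ± 0.18 in LS. The SS mean rests on tumor 8 (2.18) and tumor 3 (1.63), while the highest LS value was 0.38, and without tumor 8 the difference of 0.23 shrank to 0.099. The difference was 0.47 on the Cy5 and -0.016 on the Cy3 arrays.

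In the triose phase, GAPDH, which oxidizes glyceraldehyde 3-phosphate and is widely used as a reference gene, was not constant over these tumors. Its log2 ratios ran from -0.74 (tumor 7) through a median of -0.060 to 1.22 (tumor 1) in SS, and from -1.35 (tumor 22) through a median of -0.31 to 0.71 (tumor 30) in LS. Its 4 probes correlated with each other at 0.90 to 0.96 across tumors after centering within orientation, and its SD was at percentile 85.6 of all genes. The means of -0.067 in SS and -0.24 in LS differed by 0.17 (SE 0.18, p = 0.339), and by 0.088 without tumor 1. The difference was -0.12 on the Cy5 and 0.47 on the Cy3 arrays.

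PGK1, which makes the first ATP of the pathway, had log2 ratios from -0.81 (tumor 7) through a median of 0.050 to 1.75 (tumor 1) in SS, and from -1.09 (tumor 23) through a median of -0.39 to 0.52 (tumor 30) in LS. A level above the pool was found in 9 of 16 SS and 3 of 16 LS tumors. The means of 0.069 in SS and -0.39 in LS differed by 0.46 (SE 0.19, 95% interval 0.073 to 0.84, 1.37-fold, p = 0.021, adjusted p = 0.48). All 3 probes gave a positive difference, 0.40 to 0.52, and the lowest correlation between them was 0.92.

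PGAM1, a phosphoglycerate mutase, ran from -1.08 (tumor 7) through a median of 0.16 to 1.06 (tumor 9) in SS, and from -1.10 (tumor 23) through a median of -0.21 to 0.54 (tumor 31) in LS. SS was above the LS mean in 12 of 16 tumors. The means of 0.13 in SS and -0.27 in LS differed by 0.40 (SE 0.17, 95% interval 0.054 to 0.74, 1.32-fold, p = 0.0245, adjusted p = 0.486). ENO1, the ubiquitous enolase of the next step, averaged -0.0071 ± 0.55 in SS and -0.27 ± 0.43 in LS, and SS minus LS was 0.26 (SE 0.17, p = 0.133), or 0.034 on the Cy5 and 0.49 on the Cy3 arrays.

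LDHA, which makes lactate and is the form typical of muscle and of many tumors, varied most of all members, its SD being at percentile 94.5 of all genes. Its log2 ratios ran from -0.94 (tumor 7) through a median of 0.28 to 0.77 (tumor 3) in SS, and from -3.12 (tumor 29) through a median of -0.28 to 0.91 (tumor 22) in LS. The groups spanned much the same range apart from tumor 29. The means of 0.061 in SS and -0.42 in LS gave the largest difference of the 26 genes, 0.48, but also the widest error (SE 0.26, p = 0.0745, adjusted p = 0.642), and without tumor 29 the difference was 0.30. It was 0.70 on the Cy5 and 0.25 on the Cy3 arrays. LDHA alone of the 26 members had the same sign under each of the 13 alternative settings. These include Cy3 values turned against the stated switching, the only setting that changed the sign of ALDOA, PFKFB3 and PGK1. That setting turns any positive difference that is larger on the Cy3 than on the Cy5 arrays, so the count does not set LDHA apart.

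**Figure D2:**
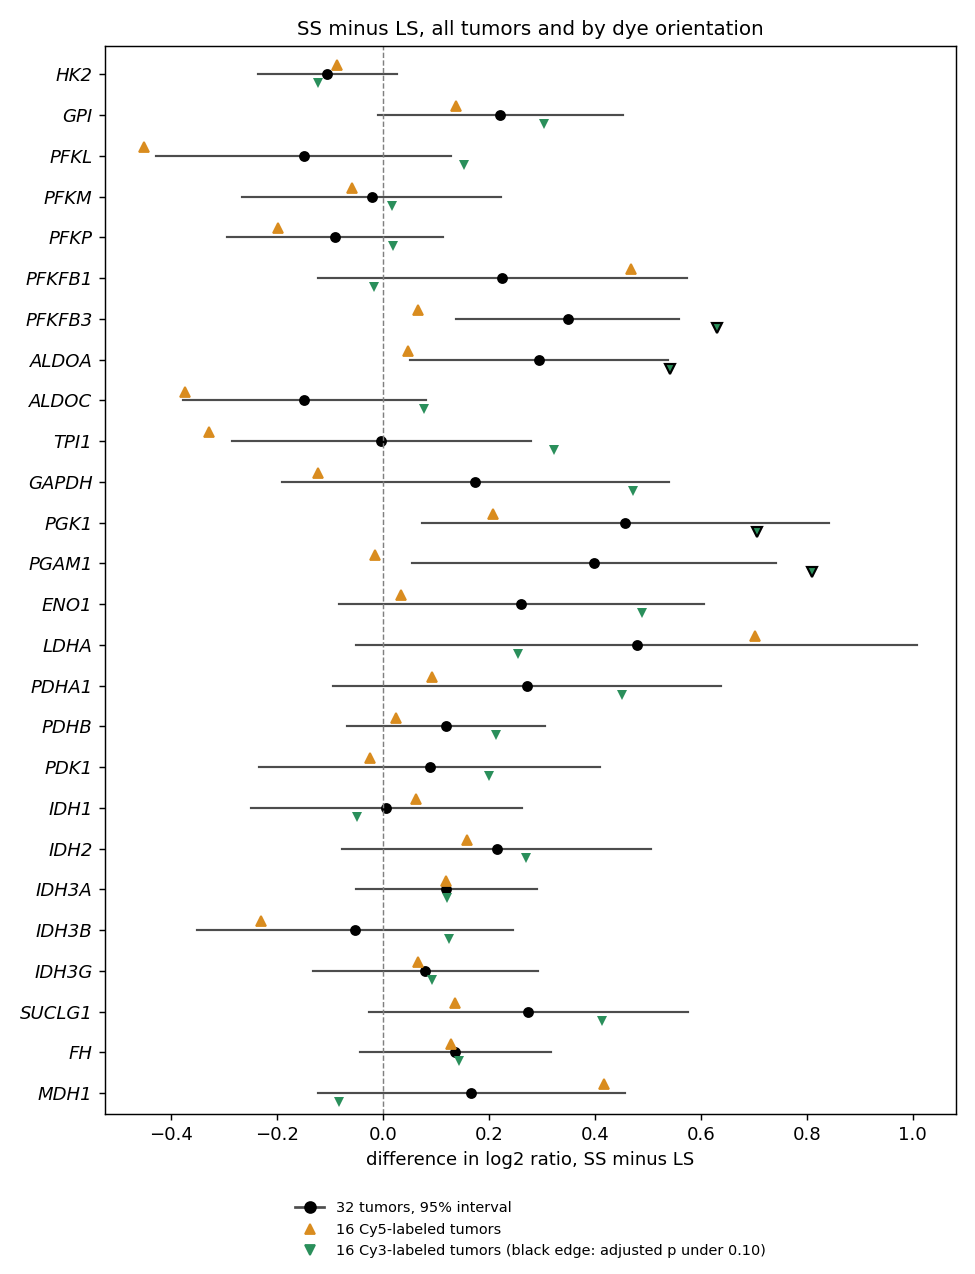
Difference in log2 ratio, SS minus LS (horizontal axis), for the 26 genes in pathway order. Black points and lines give the difference over 32 tumors with its 95% interval, upward triangles the difference among tumors in Cy5 (n = 16) and downward triangles that among tumors in Cy3 (n = 16), with a black edge at an adjusted p under 0.10. The interval lies above 0 for PFKFB3, ALDOA, PGK1 and PGAM1, and the Cy3 difference exceeds the Cy5 difference for 21 of 26 genes.

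At the entry to the citrate cycle, PDHA1 and PDHB, the subunits of the decarboxylating enzyme of the pyruvate dehydrogenase complex, were not called. PDHA1 ran from -0.46 (tumor 7) through a median of 0.11 to 0.99 (tumor 16) in SS, and from -1.01 (tumor 21) through a median of -0.22 to 1.11 (tumor 18) in LS, and the groups overlapped fully. Its means of 0.18 in SS and -0.093 in LS differed by 0.27 (SE 0.18, p = 0.141), or by 0.093 on the Cy5 and 0.45 on the Cy3 arrays. The 3 probes of PDHA1 gave differences from 0.19 to 0.42, and the lowest correlation between them was 0.013. PDHB averaged 0.064 ± 0.23 in SS and -0.055 ± 0.28 in LS, with p = 0.204. PDK1, a kinase that inactivates the complex and a known hypoxia target, averaged 0.044 ± 0.55 in SS and -0.044 ± 0.34 in LS (p = 0.581), and its difference of 0.088 was 0.018 without SS tumor 3.

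Of the citrate cycle genes, SUCLG1, the shared alpha subunit of succinyl-CoA ligase, had the smallest p. It ran from -0.76 (tumor 6) through a median of 0.096 to 0.90 (tumor 1) in SS, and from -0.79 (tumor 29) through a median of -0.40 to 0.92 (tumor 18) in LS. SS was above the LS mean in 14 of 16 tumors, and the means of 0.082 in SS and -0.19 in LS differed by 0.27 (SE 0.15, p = 0.0726, adjusted p = 0.64), or by 0.14 on the Cy5 and 0.41 on the Cy3 arrays. FH, fumarase, averaged 0.065 ± 0.24 in SS and -0.071 ± 0.26 in LS (difference 0.14, SE 0.089, p = 0.134), with 0.13 on the Cy5 and 0.14 on the Cy3 arrays. MDH1, the cytosolic malate dehydrogenase, differed by 0.17 (means 0.031 in SS and -0.14 in LS, SE 0.14, p = 0.25), and by 0.095 without LS tumor 19. Its difference was 0.42 on the Cy5 and -0.083 on the Cy3 arrays.

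IDH3A, IDH3B and IDH3G encode the subunits of the NAD-dependent isocitrate dehydrogenase of the cycle. Their differences were 0.12 (SE 0.084), -0.052 (SE 0.15, means -0.076 in SS and -0.024 in LS, p = 0.723) and 0.080 (SE 0.10, means -0.045 in SS and -0.13 in LS, p = 0.449). Probes of IDH3B and IDH3G disagreed: the lowest correlation between probes of one gene was -0.0062 and -0.036, and the IDH3B mean of tumor 3 (-2.08) turned the sign, the difference being 0.081 without that tumor. The IDH3G difference was 0.047 without SS tumor 4 and 0.12 without SS tumor 1. IDH1, the cytosolic NADP-dependent enzyme, differed by 0.0066 (SE 0.13). IDH2, its mitochondrial counterpart, averaged 0.054 ± 0.45 in SS and -0.16 ± 0.37 in LS, and SS minus LS was 0.21 (SE 0.14, p = 0.143), or 0.12 without tumor 1. It was 0.16 on the Cy5 and 0.27 on the Cy3 arrays.

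Within the 16 Cy3-labeled tumors 4 members were called, PFKFB3, ALDOA, PGK1 and PGAM1, all higher in SS, where 110 genes of the array were called (2.1%), 76 of them higher (1.45%). A difference above 0 was found for 22 of 26 members (84.6%), against 56.7% of all genes, and 8 members reached an unadjusted p under 0.05 in the higher direction, against 10.4% of all genes. The members beside the 4 called were GPI, GAPDH, ENO1 and SUCLG1. Within the 16 Cy5-labeled tumors 0 members were called, by limma, beside 111 genes (2.12%), and 3 members had an unadjusted p under 0.05 (12% of all genes). These 3, ALDOC, PFKL and TPI1, were lower in SS, as were 4.52% of all genes at that limit. On the Cy5 arrays 16 of 26 members were above 0 (61.5%), against 52.3% of all genes, and the 15 glycolysis genes had a median of -0.014, with 7 of 15 above 0.

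PFKFB3 in the Cy3-labeled tumors ran from 0.090 (tumor 15) through a median of 0.38 to 1.07 (tumor 9) in SS, and from -0.52 (tumor 22) through a median of -0.20 to 0.11 (tumor 28) in LS. Of 8 SS tumors 7 lay above the highest LS tumor. The difference was 0.63 (SE 0.12, 1.55-fold, limma adjusted p = 0.0408), against 0.067 in the Cy5-labeled tumors (SE 0.13).

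ALDOA in the Cy3-labeled tumors ran from -0.21 (tumor 14) through a median of 0.047 to 0.45 (tumor 15) in SS, and from -0.77 (tumor 22) through a median of -0.40 to -0.13 (tumor 27) in LS. Again 7 of 8 SS tumors lay above all LS tumors. The difference was 0.54 (SE 0.11, 1.46-fold, limma adjusted p = 0.0408), against 0.046 in the Cy5-labeled tumors (SE 0.16). By single probe, the Cy3 difference of ALDOA was 0.28 (limma adjusted p = 0.101), 0.68 (0.0413) and 0.67 (0.0247). The lowest correlation between its probes across all tumors was 0.30.

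PGK1 in the Cy3-labeled tumors ran from -0.53 (tumor 14) through a median of 0.10 to 0.70 (tumor 13) in SS, and from -1.09 (tumor 23) through a median of -0.45 to -0.14 (tumor 26) in LS. The highest LS tumor was exceeded by 7 of 8 SS tumors. The difference was 0.71 (SE 0.17, 1.63-fold, limma adjusted p = 0.0773), against 0.21 in the Cy5-labeled tumors (SE 0.32).

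PGAM1 in the Cy3-labeled tumors ran from -0.56 (tumor 14) through a median of 0.24 to 1.06 (tumor 9) in SS, and from -1.10 (tumor 23) through a median of -0.47 to 0.13 (tumor 24) in LS. The overlap was wider, with 4 of 8 SS tumors above all LS tumors. The difference was 0.81 (SE 0.22, 1.75-fold, limma adjusted p = 0.0969), against -0.014 in the Cy5-labeled tumors (SE 0.21).

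**Figure D3:**
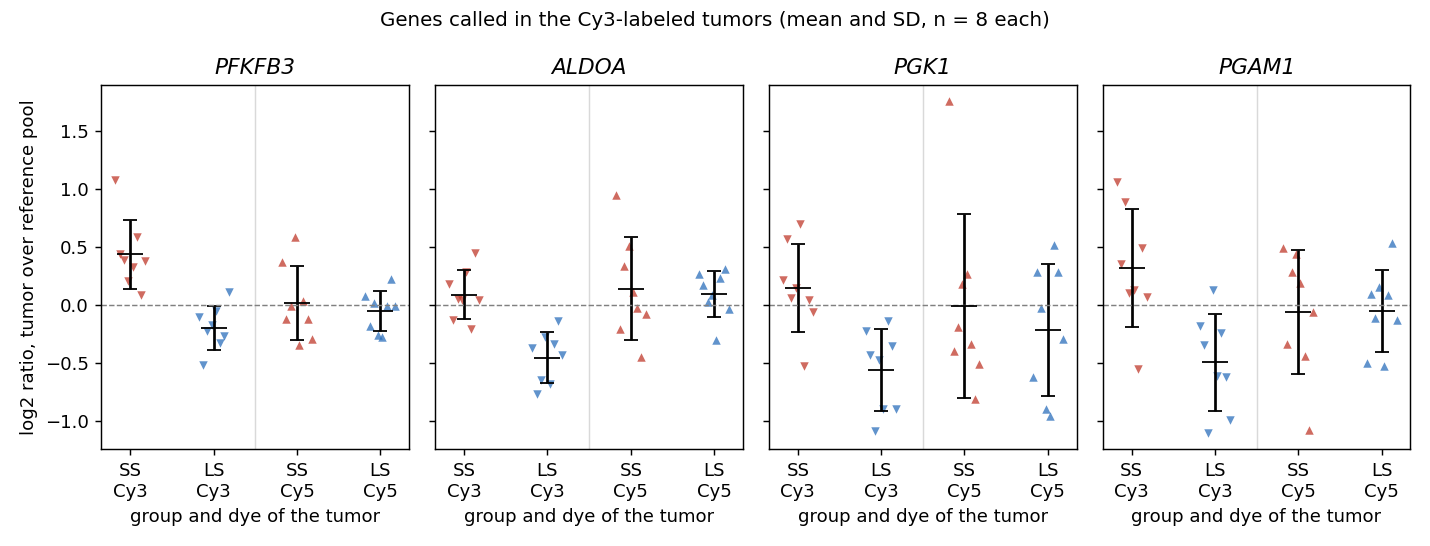
Log2 ratio of tumor over pool (vertical axis) for PFKFB3, ALDOA, PGK1 and PGAM1 by survival group and by the dye of the tumor, 8 tumors in each column, with mean and SD. In the Cy3-labeled tumors the SS means of the 4 genes lie above the LS means, while in the Cy5-labeled tumors the means differ by less than the SD.

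These calls differed in how they held when 1 Cy3-labeled tumor was left out. ALDOA and PFKFB3 were called in 16 of 16 such runs, with adjusted p between 0.0317 and 0.089 for ALDOA and between 0.0449 and 0.0813 for PFKFB3. PGK1 was called in 8, and not without SS tumor 10, 13, 15 or 16 or LS tumor 21, 23, 25 or 28 (adjusted p up to 0.151). PGAM1 was called in 3, without SS tumor 14 or LS tumor 24 or 26, and its adjusted p was up to 0.188 in the other runs. When the dye profile of each array was removed at its own strength, the adjusted p was 0.0467 for PFKFB3, 0.0555 for ALDOA, 0.0748 for PGK1 and 0.0882 for PGAM1. The test of the difference between the orientations called none of the 26 members (162 of all genes, 3.09%), although 6 members had an unadjusted p under 0.05 (14.7% of all genes), all 6 with the lower difference in Cy5 (6.84%). PFKFB3 came nearest, where the SS minus LS difference on the Cy5 arrays minus that on the Cy3 arrays was -0.56 (adjusted p = 0.105). The sign was opposite in the orientations for 12 of 26 members (46.2%), against 50.2% of all genes.

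Neighbors in the pathway were compared across the 32 tumors after centering within orientation, for 22 pairs, with permutation tests of 100000 resamples and adjustment over the pairs. The values of a pair share the array, its dye and its normalization. Of the 22 pairs, the largest r were found among enzymes of the lower glycolytic pathway. PGAM1 and ENO1 gave r = 0.79 (rho = 0.81, permutation p = 1e-05 for both, adjusted p = 7.33e-05), with 0.94 within the Cy5 and 0.72 within the Cy3 arrays. TPI1 and GAPDH gave r = 0.79 (rho = 0.82, permutation p = 1e-05 for both, adjusted p = 7.33e-05), with 0.67 and 0.91 within the orientations. Here 1e-05 is the smallest p that the permutations can give. Without the 2 tumors farthest from the median of the first gene, r was 0.73 for PGAM1 and ENO1 and 0.73 for TPI1 and GAPDH.

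GAPDH and PGK1 (r = 0.69, rho = 0.63, permutation p = 5e-05 and 0.00016, adjusted p = 0.000275 and 0.00088) and PGK1 and PGAM1 (r = 0.69, rho = 0.75, permutation p = 1e-05 for both, adjusted p = 7.33e-05) were likewise correlated. Without the 2 farthest tumors r was 0.63 and 0.75. ALDOA and TPI1 gave r = 0.51 (rho = 0.49, permutation p = 0.00425 and 0.0065, adjusted p = 0.0156 and 0.0238, r = 0.47 without the 2 farthest tumors). Outside glycolysis, the complex partners PDHA1 and PDHB gave r = 0.55 (rho = 0.55, permutation p = 0.00128 and 0.0017, adjusted p = 0.00563 and 0.00748), and r was 0.58 without the 2 farthest tumors. Both means join probes with a low median correlation, 0.17 for PDHA1 and 0.24 for PDHB.

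The other 16 pairs did not pass by r. GAPDH and LDHA gave r = 0.15 (rho = 0.017, adjusted permutation p = 0.615 and 0.942), and PGK1 and LDHA gave r = 0.37 (rho = 0.26, adjusted permutation p = 0.169 and 0.34). Outside the tested pairs, LDHA had r = 0.58 with ENO1, 0.47 with ALDOA, 0.42 with PGAM1 and 0.026 with TPI1. HK2 and GPI gave r = 0.0028, GPI and PFKM r = 0.023 and IDH1 and IDH2 r = 0.0025. The subunits of the isocitrate dehydrogenase complex gave r of -0.041, -0.16 and -0.17, the last of which was 0.46 without tumors 1 and 3. By rho alone, GPI and PFKL (0.46, adjusted permutation p = 0.0277) and PFKL and ALDOA (0.41, adjusted permutation p = 0.0562) passed too. As a description over all 325 pairs of members, the median r was 0.205, and 22 of the 105 glycolytic pairs, 7 of the 55 pairs of pyruvate dehydrogenase and citrate cycle genes and 13 of the 165 pairs between both had r above 0.5.

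**Figure D4:**
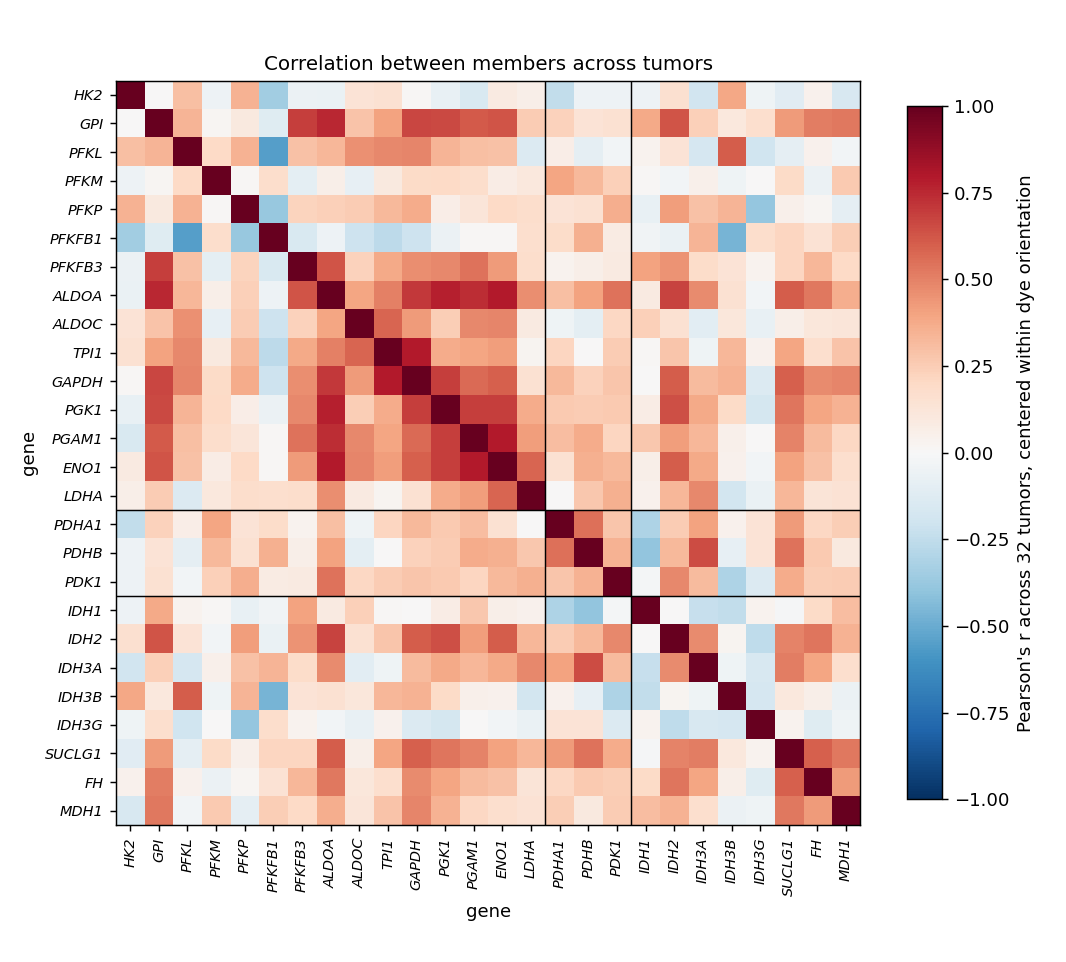
Pearson's r between the 26 genes across 32 tumors, centered within dye orientation. Both axes list the genes in pathway order, with black lines after LDHA and after PDK1, and color runs from blue (-1) to red (1). A red block joins GPI, PFKFB3, ALDOA and the genes from TPI1 to ENO1, and HK2, PFKM, PFKFB1, IDH1 and IDH3G have mostly pale cells. IDH2 and SUCLG1 are red with several genes of this block too, with r up to 0.68 and 0.60, both with ALDOA.

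Tumors differed in the level of the whole pathway. Tumor 1, an SS tumor in Cy5, had the highest mean over the 26 genes, 0.55. By log2 ratios not centered within orientation, it was among the 5 highest tumors for 16 of 26 genes. Its highest values were those of PGK1 (1.75), IDH2 (1.40) and GAPDH (1.22). The array of this tumor also had the widest spread over all probes (SD 0.762), and the part of that spread in these levels was not tested. The lowest means were found in LS tumor 29 in Cy5 (-0.39), LS tumors 23 and 22 in Cy3 (-0.38 each) and SS tumor 7 in Cy5 (-0.34). Over the 15 glycolysis genes the mean per tumor ran from -0.19 to 0.32 in SS and from -0.50 to -0.090 in LS among the Cy3-labeled tumors, and from -0.45 to 0.55 in SS and from -0.51 to 0.28 in LS among the Cy5-labeled ones. All 8 LS tumors in Cy3 thus had a glycolysis mean below the pool, by values not centered within orientation. After centering, which sets a tumor against the mean of all Cy3-labeled tumors, LS tumor 26 was at 0.013 and LS tumor 21 at -0.029. The other LS tumors in Cy3 then lay between -0.40 (tumor 23) and -0.12 (tumor 27). For the 11 pyruvate dehydrogenase and citrate cycle genes the mean ran from -0.14 to 0.14 in SS and from -0.42 to 0.012 in LS among the Cy3-labeled tumors, and from -0.19 to 0.54 in SS and from -0.23 to 0.30 in LS among the Cy5-labeled ones.

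**Figure D5:**
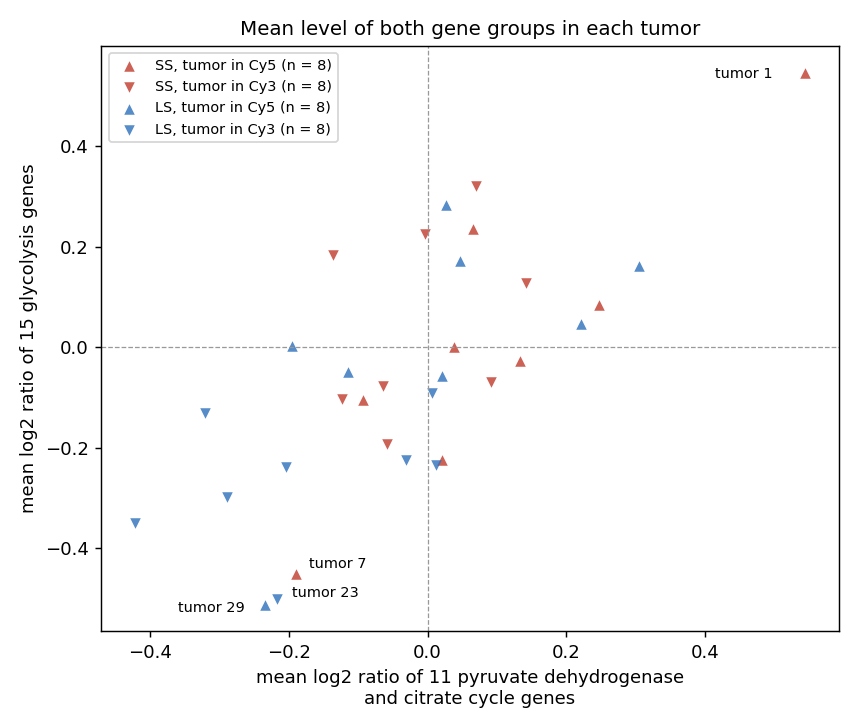
Mean log2 ratio of 15 glycolysis genes (vertical axis) against that of 11 pyruvate dehydrogenase and citrate cycle genes (horizontal axis), 1 point per tumor. Red points are SS and blue points LS tumors, and the direction of the triangle gives the dye of the tumor. Tumor 1 lies alone at the upper right and tumors 7, 22, 23 and 29 at the lower left, with tumor 22 farthest left.

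Other genes of sugar metabolism were read from lists, in which no gene was called over all tumors or with the orientation block. Of 10 other genes of glycolysis and gluconeogenesis 7 were higher in SS, against 56.6% of all genes, with a median difference of 0.034. Among them FBP1, a gluconeogenic phosphatase, had the smallest p by limma (difference 0.44, SE 0.34, p = 0.21). Of the 3 transporter genes measured, MPC1, a subunit of the mitochondrial pyruvate carrier, averaged 0.12 ± 0.43 in SS and -0.19 ± 0.35 in LS (p = 0.0274, adjusted p = 0.493), its partner MPC2 differed by 0.15 (p = 0.172), and the glucose transporter SLC2A1 spread too widely to compare (SD 2.12 in SS and 2.32 in LS). Of 7 further genes around the pyruvate dehydrogenase complex and the citrate cycle, ME1 among them, 4 were above 0, with a median of 0.0092. Of these PDP1, the phosphatase that opposes PDK1, had the smallest p (difference -0.15, p = 0.11). Of 4 pentose phosphate genes 2 were above 0, and TKT, transketolase, came first (difference 0.25, p = 0.199).

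Of 10 measured genes of the hypoxia response outside glycolysis 7 were higher in SS, against 56.6% of all genes. The median difference was 0.080, with 0.016 on the Cy5 and 0.32 on the Cy3 arrays. An unadjusted p under 0.05 by limma was found for 2 of them, against 8.44% of all genes. BNIP3, which promotes removal of mitochondria, averaged 0.19 ± 0.63 in SS and -0.31 ± 0.45 in LS (p = 0.0125, adjusted p = 0.438). It was the 1 gene of this list called in the Cy3-labeled tumors, where 2.1% of all genes were called. Its difference there was 0.81 (limma adjusted p = 0.0734), against 0.18 in the Cy5-labeled ones. ANKRD37 differed by 0.47 (p = 0.0468) and P4HA1, a collagen prolyl hydroxylase, by 0.33 (p = 0.118).

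Skeletal muscle is rich in ALDOA, PFKM and LDHA. Of 13 muscle markers measured 11 were lower and 2 higher in SS, while 56.6% of all genes were higher. The markers had a median difference of -0.19 over all tumors, -0.071 in the Cy5-labeled and -0.29 in the Cy3-labeled ones. MB, myoglobin, had the smallest p by limma (difference -0.19, p = 0.0428). The mean of the markers ran from -0.58 to 1.00 in SS and from -0.69 to 1.52 in LS, with the highest values in SS tumor 7 and in LS tumors 30 (Cy5) and 27 (Cy3). Among the Cy3-labeled tumors the mean of the markers ran from -0.54 to -0.27 in SS and from -0.69 to 1.06 in LS, so that a mean above the pool was found among LS but not SS tumors there. The median over tumors was below the pool in both groups, at -0.40 in SS and -0.25 in LS there. Over all tumors it was -0.39 in SS and -0.34 in LS. Of 6 leukocyte markers 5 were higher in SS (median 0.21, mean of the markers -1.04 to 1.79 in SS and -1.08 to 0.72 in LS), and CD68 had the smallest p (difference 0.45, p = 0.0903). Of 3 endothelial markers 1 was above 0, of 4 osteoblast markers 1, of 2 cartilage markers 0, and the 1 osteoclast marker, CTSK, differed by 0.45 (p = 0.264). The part of these cells in the differences of the pathway was not tested. Ratios to a pool of the same tumors do not show whether a defining marker is present, so the label of the tissue could not be checked against its markers.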

How the data were processed

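The deposited values are log2 ratios of tumor over reference pool: the authors removed defective spots by flags, normalized by Lowess within print tips, took logarithms and reversed the dye-swapped arrays. The base of the logarithm is not given in the sources used here and was read as 2 from the size of the values. Direction was taken from the stated switching and the dyes in the labels. Of 22176 probes 7694 carried 1 symbol and 14482 none, and those without are unnamed here. Probes of a symbol were averaged to 5246 genes, and 24 of the 26 members were matched by gene identifier to RefSeq, with 0 symbols changed. Cross-hybridization between near-identical genes was not tested.

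Groups and dyes came from the sample labels. SS and LS were compared with limma 3.58.1 in R 4.3.3 (lmFit, eBayes, two-sided), first without a covariate, as in the methods of the study, with Benjamini-Hochberg adjustment over all genes at 0.10. Errors are SE from limma or SD over tumors, and intervals cover 95%. Correlations used Python 3.11.15. The study's own test, Significance Analysis of Microarrays, was rebuilt on probes with 100 permutations, with missing values imputed from nearest neighbors (none in the members). The scripts were tested on simulated data. Signal and background were not analysed here, so the number of arrays limits the precision. Sex, grade and the chondroblastic component, used in 1 alternative, came from the clinical table of the study.

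The members, lists and tests were chosen with earlier results of these data known. Part of the naming rule, under which no probe was found, is not reported here. Genes given with full values are the 6 members higher and the 6 lower in SS with the smallest p, the 6 with the largest SD after centering, those called with the block, within an orientation or between the orientations, the pathway steps GAPDH, PGK1, ENO1, LDHA, PDHA1 and FH, and genes whose probes correlate below 0. From each other list up to 3 genes with the smallest p were named.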

Additional observations from a re-analysis of the deposited data

Results flagged for a closer look

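In each survival group and dye orientation, 8 tumors each, the highest and the lowest value of a member were set against the nearest other tumor. Of 104 such groups, 10 held a tumor whose gap passed the 95% limit of Dixon's test, where chance gives about 1 in 20 groups. Among SS tumors in Cy5, tumor 1 stood far above the others for GAPDH (1.22, next 0.16), PGK1 (1.75, next 0.27) and PFKP (0.63, next 0.13), and tumor 3 far below them for IDH3B (-2.08, next -0.031). Among SS tumors in Cy3, tumor 9 was high for IDH1 (0.68, next -0.11) and tumor 13 for PDHB (0.56, next 0.12). Among LS tumors in Cy5, tumor 20 was high for PDHB (0.72, next 0.17) and PFKP (0.92, next 0.24), and tumor 29 was low for LDHA (-3.12, next -1.04). Among LS tumors in Cy3, tumor 22 was low for IDH2 (-1.09, next -0.26).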

How the results depend on the processing

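No paired analysis was made, because each tumor is a separate dog and the study compared SS and LS as unpaired classes. Over all tumors 0 genes were called by limma, against 30 with the orientation block, 111 on the Cy5 arrays, 110 on the Cy3 arrays, 10 with array weights, 29 with sex, grade and chondroblastic component beside the block, 31 with log10 survival time, 135 with the Cy3 signs turned, 74 with the dye profile removed from each array (chosen after seeing the data) and 46 by Significance Analysis of Microarrays. Members called were 4 on the Cy3 arrays and 1, PFKFB3, by Significance Analysis of Microarrays, and 0 under the other settings. On the Cy3 arrays, testing single probes gave 9 members (chosen after seeing the data), but it also raised the genes called on the array from 110 to 485. With each tumor left out, 0 to 9 genes and 0 to 0 members were called, the median member difference lay between 0.11 and 0.18, 18 to 21 members were higher in SS, and 2 to 5 members were called on the Cy3 arrays. Of the neighbor pairs, 9 passed without the 2 farthest tumors, against 6.

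With the Cy3 signs turned, against the stated switching, the median member difference was -0.11 and 5 members were higher. The SS minus LS difference then was ALDOA -0.25, ENO1 -0.23, FH -0.0070, GAPDH -0.30, GPI -0.083, HK2 0.018, IDH2 -0.056, IDH3A -0.0004, IDH3G -0.013, PDHA1 -0.18, PDHB -0.095, PDK1 -0.11, PFKFB3 -0.28, PGAM1 -0.41, PGK1 -0.25 and SUCLG1 -0.14.

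Signs also turned within an orientation. On the Cy5 arrays alone GAPDH was -0.12, PDK1 -0.025 and PGAM1 -0.014. On the Cy3 arrays alone ALDOC was 0.077, IDH1 -0.049, IDH3B 0.12, MDH1 -0.083, PFKFB1 -0.016, PFKL 0.15, PFKM 0.017, PFKP 0.019 and TPI1 0.32. The genes near 0 turned under other settings. Among these, survival time gives a slope per unit of log10 survival time instead of SS minus LS. This slope is positive where levels are higher at shorter survival. IDH1 was -0.030 with arrays scaled to one absolute deviation, -0.045 after quantile normalization, -0.017 with array weights, -0.0036 with the covariates and -0.041 with survival time. IDH3B was 0.13 by its single probe with the smallest p, 0.047 by the median of its probes and 0.017 with array weights. PFKM was 0.030 with array weights and 0.069 with survival time. TPI1 was 0.096 with array weights, 0.0069 with the covariates, 0.036 with survival time and 0.0062 with the dye profile removed. With 1 tumor left out, IDH1 lay between -0.039 and 0.051, IDH3B between -0.088 and 0.081, PFKM between -0.064 and 0.021 and TPI1 between -0.069 and 0.065. None of these values passed the threshold, and the cause was not tested.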
